A study of Drosophila melanogaster with 2 samples.

Results

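The odorant receptor (Or), gustatory receptor (Gr) and ionotropic receptor (Ir) genes of Drosophila melanogaster were examined in genome-wide maps of the transcription factor Oli. Members were all protein-coding genes whose symbol is Or, Gr or Ir followed by a digit, which gave 59 Or, 60 Gr and 60 Ir genes, or 179 of 13945 protein-coding genes. The rule leaves out Orco, the odorant co-receptor. Oli occupancy came from ChIP-seq, in which chromatin bound by a protein is precipitated and sequenced. The material was mixed-sex embryos 6 to 18 hours old, from a stably transgenic line carrying Oli with GFP at its C terminus, and an anti-GFP antibody was used. There was 1 group of 2 biological replicates and no second condition. What drives the transgene is not given in the sources used here. Whole embryos mix many cell types, so a peak does not say in which cells the protein was bound, and the lists hold no RNA levels for the receptors.

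Or and Gr proteins are related membrane channels with inverted topology, while Ir proteins descend from ionotropic glutamate receptors. Each sensory neuron of the antenna, maxillary palp, mouthparts or legs typically uses a small choice of these receptors, often together with a co-receptor, and turns them on late as it differentiates. Oli is a basic helix-loop-helix (bHLH) protein of the Olig family, and bHLH dimers bind the E-box CANNTG.

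A peak was tied to the gene whose protein-coding start lay nearest to its summit, and was called a promoter peak within 500 bp of that start and a distal peak beyond. The list that passed the irreproducible discovery rate (IDR) threshold held 6496 peaks. The pooled list and each replicate list held 30000. All 6496 IDR peaks are the strongest peaks of the pooled list, so the pooled list adds weaker peaks to them. The signal of a peak is the authors' own value, and it is used only to describe and rank peaks within a list. Lists differ in scale, so signals are not compared across lists. Depth is unknown because no read counts were used here. With peaks called once per list, shares of genes carry no replicate SD, and the pooled list and both replicate lists are given instead.

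The sequences at the strongest receptor-linked summits are shown first, since the rest of the account turns on them. Each holds an IDR summit and the 50 bases on either side of it, on the plus strand of the dm6 assembly, read from the reference genome, with E-boxes in capitals. They belong to the 10 genes with the highest IDR signals, each by its highest peak, in falling order. The windows lie at chr3R:16497564-16497664 for Gr89a, chr3R:21828316-21828416 for Gr93a, chr3R:21849087-21849187 for Gr93d and chr3L:10428869-10428969 for Ir67b. Those of Or67d and Gr93b lie at chr3L:10337766-10337866 and chr3R:21838521-21838621. Those of Ir94d and Or98a lie at chr3R:23396654-23396754 and chr3R:27826277-27826377. Those of Ir94a and Ir94e lie at chr3R:22108457-22108557 and chr3R:23407936-23408036.
Gr89a: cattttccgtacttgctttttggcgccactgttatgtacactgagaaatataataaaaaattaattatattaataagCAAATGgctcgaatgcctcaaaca
Gr93a: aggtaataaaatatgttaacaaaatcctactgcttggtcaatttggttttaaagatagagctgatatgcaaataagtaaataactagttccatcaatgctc
Gr93d: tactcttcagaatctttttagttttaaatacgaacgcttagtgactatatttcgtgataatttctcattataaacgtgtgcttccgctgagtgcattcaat
Ir67b: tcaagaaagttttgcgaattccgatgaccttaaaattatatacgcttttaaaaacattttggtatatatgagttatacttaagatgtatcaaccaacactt
Or67d: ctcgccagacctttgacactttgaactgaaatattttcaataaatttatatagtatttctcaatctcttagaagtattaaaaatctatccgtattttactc
Gr93b: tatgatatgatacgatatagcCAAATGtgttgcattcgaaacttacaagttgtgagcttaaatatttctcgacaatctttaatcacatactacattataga
Ir94d: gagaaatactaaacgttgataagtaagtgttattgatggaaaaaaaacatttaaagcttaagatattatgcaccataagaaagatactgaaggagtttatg
Or98a: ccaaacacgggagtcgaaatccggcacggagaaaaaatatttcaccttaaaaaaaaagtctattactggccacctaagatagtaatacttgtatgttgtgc
Ir94a: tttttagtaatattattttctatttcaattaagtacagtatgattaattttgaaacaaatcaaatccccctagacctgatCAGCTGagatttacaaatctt
Ir94e: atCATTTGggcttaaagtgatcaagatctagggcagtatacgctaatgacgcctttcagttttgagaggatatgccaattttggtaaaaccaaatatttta

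These windows are rich in A and T. The 24 IDR summits tied to receptor genes had a GC content of 30.7% ± 6.54 (SD over peaks), against 30.9% ± 8.21 for all 6496 IDR summits. An E-box lay in 6 of the 24 windows (25%), against 32.3% of all IDR windows. The 6 comprise 4 of 11 Gr peaks and 2 of 6 Ir peaks, and none of the 7 Or peaks. The motif CATATG lay in 1 of the 24 windows and CAGCTG in 2, while CACGTG and CACCTG lay in none; over all IDR windows these 4 were found in 4%, 2.28%, 0.508% and 1.68%. E-boxes read the same on both strands as a class, and these 4 are members of CANNTG. A match is a run of letters and not a shown binding site.

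Receptor genes had fewer IDR peaks than coding genes at large, and no promoter peak among them. At least 1 IDR peak was tied to 14 of 179 receptor genes (7.82%), against 25.8% of all coding genes. A promoter IDR peak was tied to 0 of 179, against 14.1% of all coding genes. A distal IDR peak was tied to 14 (7.82%), against 15.5%. The families were close to one another, with 5 of 59 Or genes (8.47%), 4 of 60 Gr genes (6.67%) and 5 of 60 Ir genes (8.33%). The distal share of receptors was therefore also below that of all genes, but the gap was widest at promoters.

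The pooled list gave the same order with higher shares. A pooled peak was tied to 73 of 179 receptor genes (40.8%), against 53.7% of all coding genes. Promoter peaks were tied to 17 (9.5%), against 33.5%, and distal peaks to 66 (36.9%), against 38.2%. Here the distal shares of receptors and of all genes nearly met, while the promoter shares stayed apart. Each replicate list showed the same, with any peak at 38.5% of receptors against 54.1% in replicate 1 and at 40.2% against 55.9% in replicate 2. Promoter peaks were found at 8.94% of receptors against 33.2% in replicate 1 and at 8.38% against 35.6% in replicate 2.

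Among the families the distal peaks of the pooled list set Or genes apart from the others, and the promoter peaks did not. Distal pooled peaks were tied to 49.2% of Or, 28.3% of Gr and 33.3% of Ir genes, and promoter pooled peaks to 10.2%, 10% and 8.33%. In replicate 1 the distal shares were 44.1% for Or, 26.7% for Gr and 35% for Ir, and in replicate 2 they were 50.8%, 26.7% and 36.7%. The territory of a gene means the stretch closer to its start than to that of any other coding gene. Its medians were 5106 bp for Or, 3335 bp for Gr and 5632 bp for Ir genes, with Ir above Or. Upper quartiles were 15265, 6931 and 11314 bp, and summed territories 0.66, 0.333 and 0.583 Mb. Both of these followed the order of the distal shares. The part of territory in the family difference was not tested.

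**Figure D1:**
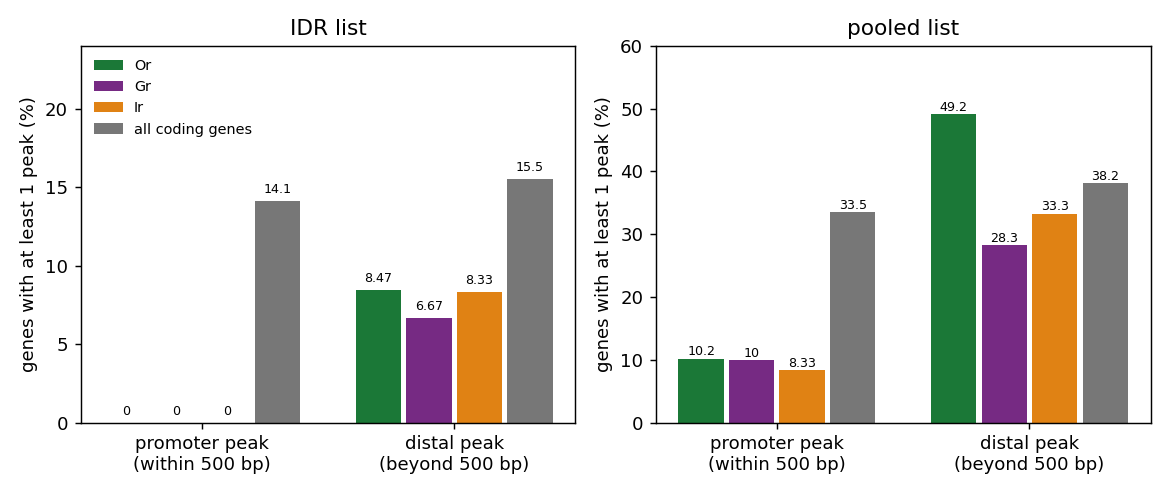
Percent of Or, Gr and Ir genes and of all coding genes (bars, left to right in each cluster) with at least 1 promoter or distal peak, in the IDR list (left) and the pooled list (right). No receptor family has a promoter IDR peak, against 14.1% of all coding genes, and the pooled distal share of Or genes (49.2%) is the only receptor bar above that of all coding genes (38.2%).

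Territory length sets how many summits can be tied to a gene, and receptors do not have short territories. The median was 4304 bp for receptors and 4328 bp for all coding genes. Receptor territories together cover 1.57 Mb, or 1.17% of the sequence searched, and held 15.3 IDR peaks per Mb, against 48.5 over all coding genes. In the pooled list the densities were 159 and 224 peaks per Mb. By family the IDR density was 10.6 for Or, 33 for Gr and 10.3 for Ir, and the pooled density 187, 171 and 122. Or67d alone held 30 of the 123 Or pooled peaks, in a territory of 72854 bp. No Or density is given without it, so the order of families in pooled density may rest on this gene. Within bands of like territory the receptor shares stayed lower. Of receptors with a territory over 10000 bp, 8 of 47 (17%) had an IDR peak, against 47.9% of all such coding genes, and under 2000 bp it was 0 of 30 against 12.3%. For pooled peaks the shares over 10000 bp were 78.7% and 85.6%, and for pooled promoter peaks 12.8% and 43.2%. So the difference in any pooled peak shrank in long territories while that in promoter peaks did not.

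A summit near a receptor start can be tied to a neighbouring gene, so the distance from every receptor start to the nearest summit was measured whichever gene that summit was tied to. No receptor start had an IDR summit within 500 bp, against 18.8% of coding genes. The median distance to the nearest IDR summit was 13648 bp for receptors (23174 bp for Or, 10179 bp for Gr and 9932 bp for Ir), against 6300 bp for all coding genes. Around the outermost start of each gene, IDR summits numbered 0 per Mb at 0 to 500 bp and 50.6 per Mb at 10000 to 20000 bp for receptors, against 172 and 61 for all coding genes. Pooled summits numbered 106 and 230 per Mb for receptors, against 435 and 247. The peak of density at the start that coding genes show was thus not seen at the annotated starts of receptors, and their density rose with distance instead. The 2 sets of starts are not alike, since 72.6% of receptors have no annotated 5' UTR, against 3.52% of all coding genes. Other coding genes without one had promoter IDR peaks in 0.554%, against 14.7% of those with one. The part of this in the density was not tested.

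**Figure D2:**
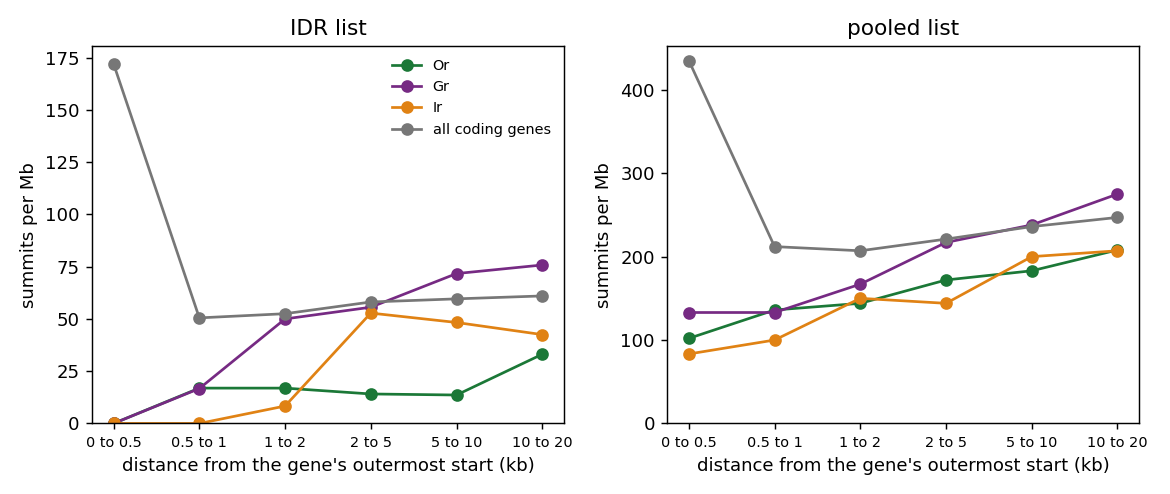
Summits per Mb of sequence in 6 bands of distance from the outermost start of each gene, for Or, Gr and Ir genes and all coding genes, in the IDR list (left) and the pooled list (right). All coding genes fall steeply after the first 500 bp (172 to 50.5 per Mb in the IDR list), while the receptor families start at 0 in the IDR list and rise in the pooled list. Starts are as annotated, and 72.6% of receptors have no annotated 5' UTR, against 3.52% of all coding genes.

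An IDR summit lay within 2000 bp of 10 receptor starts (5.59%), against 28.7% of all coding genes. For Gr89a, Or67d and Gr93a it was tied to the receptor itself, and for the other 7 a different gene was closer. The strongest of these 7, signal 808.5, lay 631 bp from Or88a, a receptor for fly-derived odours, and 493 bp from CG12402. Another of signal 562.5 lay 702 bp from Gr32a, which serves bitter taste, and 251 bp from Idua. One of signal 344.3 lay 1400 bp from Gr5a, the trehalose receptor, and 760 bp from Tre1, a G protein-coupled receptor gene. The others lay near Gr39b, Gr97a, Ir94c and Or85f, at 1310 to 1963 bp, each closer to a CG-numbered gene.

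Most receptor gene models carry no 5' UTR, and promoter peaks were about as rare at receptors with one as at those without. The part of the gene models in the receptor shares was not tested. Ensembl annotated no 5' UTR for 130 of 179 receptors (72.6%; 72.9% of Or, 65% of Gr and 80% of Ir), against 3.52% of all coding genes, so their annotated start is the first base of the coding sequence. The 130 receptors without a 5' UTR had promoter IDR peaks in 0% and promoter pooled peaks in 9.23%, against 0.554% and 8.86% of the 361 other coding genes without one. An IDR peak of any kind was tied to 12 of these 130 (9.23%), against 42 of the 361 (11.6%). The 49 receptors with a 5' UTR had promoter IDR peaks in 0% and promoter pooled peaks in 10.2%, against 14.7% and 34.5% of the other coding genes with one. Receptors without a 5' UTR thus had shares near those of other such genes, while receptors with one lay below other genes with one. Widening the promoter to 1000 bp still gave 0 receptors with a promoter IDR peak.

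Ir genes with a 5' UTR had the highest promoter share of any family in the pooled list, 3 of 12, against 0 of 16 Or and 2 of 21 Gr genes with one. The counts are small. The windows from 250 bp before to 50 bp after the annotated start also differed among families in letters. TATAAA, on either strand, lay in 78% of Or, 30% of Gr and 55% of Ir windows, against 45.8% of all coding genes, and CANNTG in 81.4%, 85% and 83.3%, against 77.2%. Their GC content was 39.5% ± 5.82 for receptors and 39.1% ± 7.74 for all coding genes (SD over genes).

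The 24 IDR peaks tied to receptors form 22 regions once overlapping peaks are joined, and make up 0.369% of the IDR list. They comprise 7 Or, 11 Gr and 6 Ir peaks. All 24 overlapped a peak in both replicate lists, against 99.5% of all IDR peaks. The IDR threshold selects peaks that agree between replicates, so this overlap adds no support for them. For 19 of the 24 the partner ranked within the first 6496 of both replicates. Their median signal was 291, against 295 for all IDR peaks and 279 for all distal IDR peaks. By family the median was 181 for Or, 301 for Gr and 294 for Ir peaks. Gr and Ir peaks were thus of ordinary height, while Or peaks were lower. The Gr93 genes hold 10 of the 24 peaks, and no median was taken without them. The strongest of the 24 ranked 1192 of 6496. Distances to the receptor start ran from 1345 to 64612 bp with a median of 3697.5 bp, with 12 upstream and 12 downstream. The summit was intergenic in 20 of 24 (83.3%), against 29.1% of all distal IDR peaks, and in an intron of a coding gene in 1 (4.17%), against 64.3%. A non-coding RNA start or pseudogene start was nearer than the receptor for 6 of the 24. No share over all IDR peaks is given for the partner ranks, the sides or these nearer starts. Those counts describe receptors alone.

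Gr89a and 3 of the 4 Gr93 genes account for every Gr peak in the IDR list. The Gr89a peak had a signal of 621.3, rank 1192, and lay 1345 bp downstream of the Gr89a start in the intergenic stretch before Cad89D. Its replicate partners ranked 1699 (signal 268) and 856 (signal 352), with summits 0 and 9 bp away, so replicates placed it within 9 bp. Gr93a, which is needed for the response to caffeine, had 4 IDR peaks of signal 620.1, 599.7, 296.7 and 182.0 at 4137 and 3483 bp upstream, 1908 bp downstream and 1967 bp upstream. The strongest ranked 1316 and 1120 in the replicates.

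The Gr93 genes lie on chromosome 3R between CASK, a membrane scaffold kinase gene, and glec, within 23.9 kb of territory that holds 10 of the 24 receptor IDR peaks and 419 IDR peaks per Mb. IDR peaks continued on both sides of this territory, so they are not particular to the Gr93 genes. A peak of signal 214.7 was tied to CASK, peaks of 266.2, 190.3 and 351.0 to glec, and a taller peak of 792.6 to lsn. Gr93b had 3 IDR peaks of signal 364.5, 291.4 and 173.7 at 5194, 4988 and 3998 bp downstream. Gr93d had 3 of signal 563.2, 300.5 and 289.8 at 2478, 3695 and 2679 bp upstream. Gr93c had none. The pairs of closely set summits are not wholly separate, since the first 2 Gr93b peaks share their partner in both replicates and 2 of the Gr93d peaks share theirs in replicate 2. Replicate ranks of the first 2 Gr93b peaks were 1655 and 5008, the widest gap among the IDR peaks of this locus.

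The higher IDR density of the Gr family rested on this locus. Without the Gr93 genes, Gr had 1 IDR peak in 0.309 Mb, or 3.23 per Mb, against 33 with them, and all receptors had 9.05 per Mb, with 11 of 175 genes having a peak. Pooled peaks were also dense here, with 23 tied to the Gr93 genes. The Gr93a start itself carried 2 pooled peaks of signal 71.9 and 68.7, at 10 and 211 bp downstream, below every IDR peak of the locus and within the range of its weaker pooled peaks. These 2 peaks overlap and share their partner in replicate 2.

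**Figure D3:**
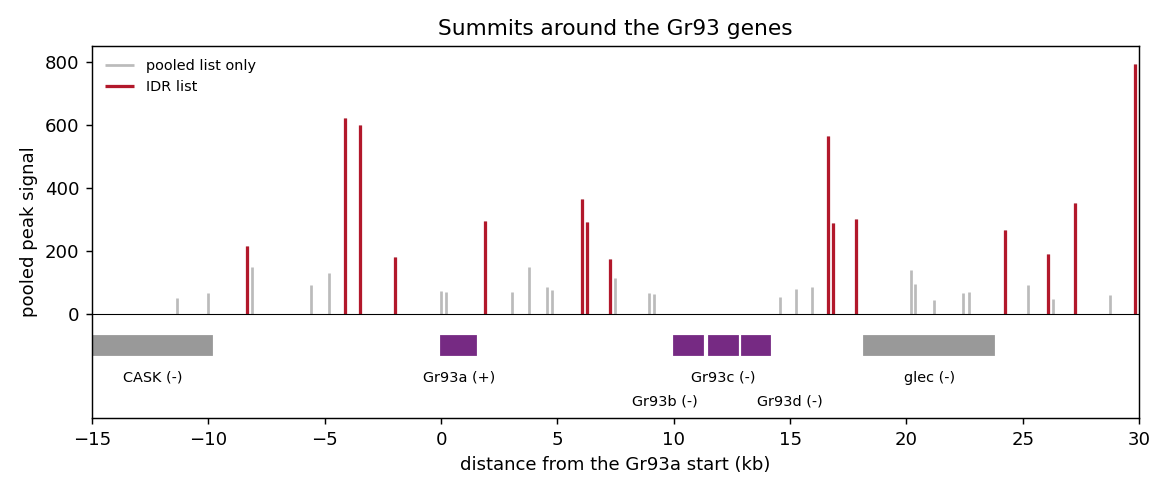
Pooled peak signal at each summit in kb from the Gr93a start, with IDR peaks in red and peaks of the pooled list alone in grey, and the Gr93 genes (purple) and their neighbours (grey) drawn below with their strand. The tall IDR summits stand between and beside the genes, and the Gr93a start carries summits of 71.9 and 68.7 alone.

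The Ir genes with IDR peaks belong to the Ir67, Ir94 and Ir20a groups. Ir67b had 2, of signal 490.8 and 461.3, at 3064 and 3700 bp downstream, and their replicate ranks were 2101 and 1344 for the first and 2328 and 1527 for the second. Both were thus within the strongest peaks of each replicate. Ir94d had 1 peak of signal 326.7 at 6104 bp upstream, with replicate ranks 3585 and 2563. Ir94a had 1 of signal 260.9 at 4920 bp upstream (ranks 3793 and 4083). Ir94e, which is expressed in taste neurons of the labellum, had 1 of signal 187.4 at 2477 bp downstream (ranks 4568 and 8626). Ir20a, on X, had 1 of signal 167.4 at 18303 bp upstream in an intron of a long non-coding RNA gene (ranks 5949 and 6221). Ir94e and Ir20a stood near the end of the IDR list, whose lowest signal is 154.8.

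The Or genes with IDR peaks were Or67d, Or98a, Or33a, Or43a and Or67c. Or67d, the receptor for the male pheromone cis-vaccenyl acetate, had 3, and its territory of 72854 bp is the longest of any Or gene. The strongest, signal 475.2, lay 64612 bp downstream in an intron of lncRNA:CR46006, with replicate ranks 1804 and 2012. The others had signals of 175.3 at 55673 bp downstream and 163.6 at 1466 bp upstream. The 2 far peaks are nearer to the start of lncRNA:CR46006 than to Or67d. Or67d also had 30 pooled peaks, the most of any receptor, followed by Or98a with 13.

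The remaining Or peaks were lower. Or98a lies inside CG34353, and its peak of signal 269.8 stood 19623 bp upstream (ranks 3434 and 3970). It is the only receptor IDR peak in an intron of a coding gene. Or33a had a peak of signal 183.9 at 2652 bp upstream, Or43a, a receptor that responds to benzaldehyde, 1 of 181.5 at 8163 bp downstream, and Or67c 1 of 156.8 at 2271 bp downstream. Replicate ranks differed most for Or43a, at 9871 and 4279. Apart from that of Or67d, no Or peak lay in the stronger 3248 peaks of the IDR list.

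In the pooled list 249 peaks were tied to receptors, 123 to Or, 57 to Gr and 71 to Ir, with 2 peaks counted for both Or10a and Gr10a, which share a start. Promoter peaks made up 7.63% of them (4.88% for Or, 14% for Gr and 7.04% for Ir), against 20.8% of all pooled peaks. Their median signal was 62.6, against 72.8 for all pooled peaks. The gap was in promoter peaks, with medians of 57.8 and 97.5, more than in distal peaks, with 63.4 and 68.9. Of the receptor peaks 58.6% overlapped a peak in both replicates (52% for Or, 64.9% for Gr and 66.2% for Ir), against 70.1% of all. Summits lay in coding exons in 10.4%, against 4.72%, and in introns of coding genes in 17.7%, against 50%.

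**Figure D4:**
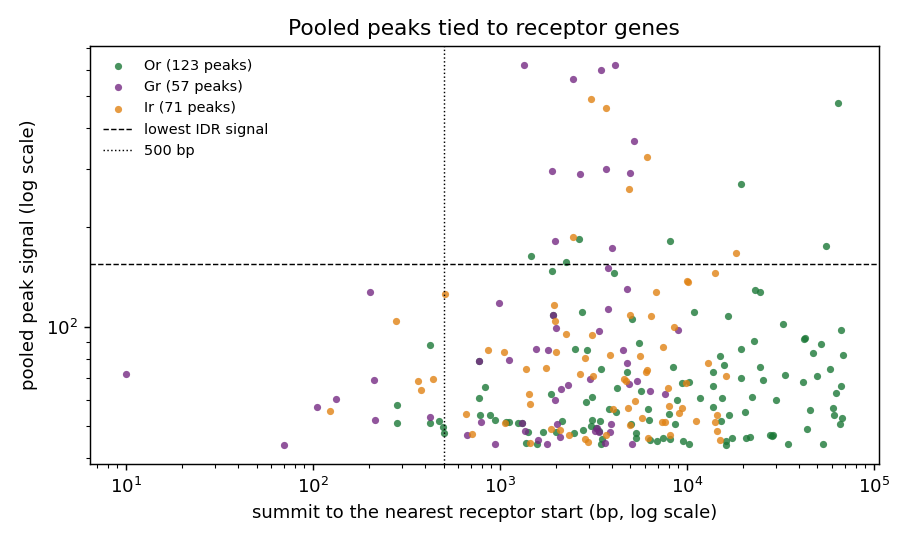
Signal of each pooled peak tied to a receptor gene against the distance of its summit from the receptor start, both on log scales, coloured by family, with the lowest IDR signal (154.8, dashed) and the 500 bp limit (dotted). The nearest peak above the dashed line lies at 1345 bp, and the highest promoter peak has a signal of 127.0.

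Receptor peaks were rarer the higher the rank. Per 1000 pooled peaks, 3.69 were tied to receptors among the first 6496 by rank. The figure was 6.85 from there to rank 10000, 9 from there to rank 20000 and 11.1 in the 10000 weakest peaks. The receptor share of the sequence searched is 11.7 per 1000, so the weakest peaks came near it. Promoter peaks were 0%, 8.33%, 7.78% and 9.01% of receptor peaks over the same ranges, against 33%, 23.7%, 18.6% and 14.1% of all peaks. In the last of these ranges 22.5% of receptor peaks and 31.6% of all peaks were in both replicates, so these are the least repeatable peaks.

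**Figure D5:**
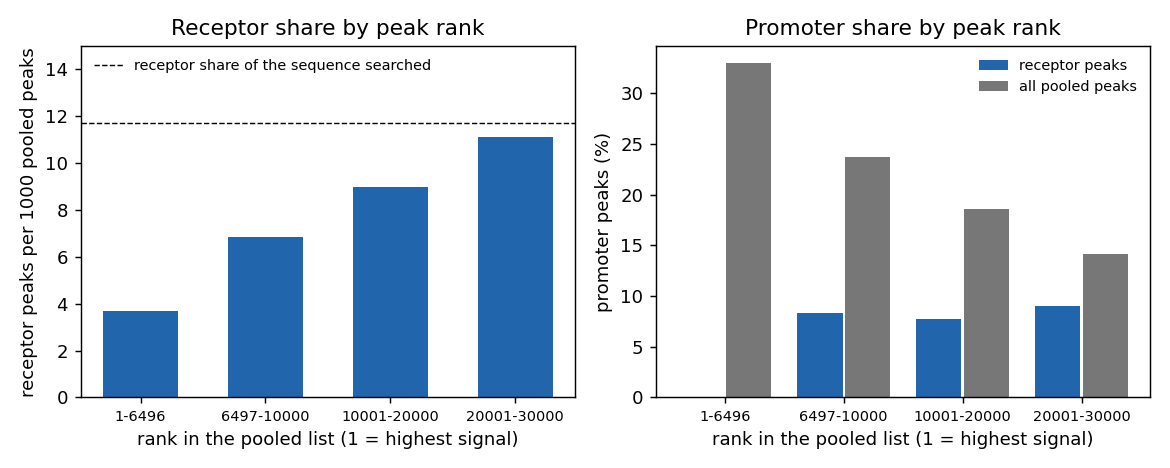
Left, receptor peaks per 1000 pooled peaks in 4 ranges of rank, with the receptor share of the sequence searched (11.7 per 1000) dashed. Right, percent of promoter peaks among receptor peaks and among all pooled peaks in the same ranges. The left bars rise from 3.69 to 11.1, and at each range the receptor promoter share lies below that of all peaks.

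The 17 genes with a pooled promoter peak were mostly at the weak end of the list. A promoter peak was called in the pooled list and in both replicate lists for 6 of them, Gr77a, Gr89a, Gr93a, Ir67c, Ir68a and Ir94f. They are 3.35% of receptors, against 25% of all coding genes. Gr77a had the highest signal, 127.0, upstream of its start, with replicate ranks 7993 and 11051, and lies inside CG13252. Ir67c had 103.9 at 277 bp upstream (ranks 10788 and 10232). Ir68a, which serves the sensing of moist air, had 69.4 at 437 bp downstream, Ir94f 68.4 at 366 bp upstream, and Gr89a 60.2 and 56.9 at 133 bp downstream and 105 bp upstream. The Gr89a pair overlaps and shares its partner in both replicates. None of the promoter peaks of these 6 genes reached the IDR level of 154.8.

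Or88a is the case in which the choice of replicate matters. Its pooled promoter peak of signal 87.7, 423 bp upstream, adjoins the IDR peak of signal 808.5 tied to CG12402. In replicate 1 a separate peak was called there with rank 3732, 432 bp from Or88a, while in replicate 2 the only overlapping peak ranked 727 and was tied to CG12402. Other promoter peaks were found in 1 replicate or none. Those of Ir87a, Or71a, Ir25a and Gr21a were found in replicate 1 alone, those of Or49a and Or56a in replicate 2 alone, and those of Gr93d, Or24a, Or83a and Gr94a in neither. The Gr93d peak overlaps a replicate 2 peak whose summit, 119 bp away, lies beyond 500 bp.

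Of 24 receptors chosen for their known roles, 1 had an IDR peak (Or67d; 4.17%, against 7.82% of all receptors and 25.8% of all coding genes). A pooled peak was tied to 10 of them (41.7%, against 40.8% and 53.7%) and a pooled promoter peak to 4 (16.7%, against 9.5% and 33.5%), so in pooled peaks of any kind they were near receptors at large. The co-receptors differed from one another. Ir25a had pooled peaks in its promoter (55.4, at 123 bp upstream, where it overlaps the 3' UTR of tank) and beyond (83.8), whereas Ir8a, Ir76b and Ir93a had none in the pooled list, with the nearest IDR summit at 7087, 71981 and 23477 bp. Among tuning Ir receptors, the acid sensor Ir64a had 4 distal pooled peaks up to signal 94.6 and Ir84a, which detects phenylacetic acid, 2 up to 74.1. Ir40a, which serves the sensing of dry air, had none in a territory of 40344 bp.

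Among these 24 genes, no sugar or bitter receptor had a pooled peak, although Gr93a, named above for its part in the response to bitter caffeine, is outside the 24 and has 11. Without a pooled peak were the sugar receptors Gr5a, Gr64a and Gr64f, the fructose receptor Gr43a, and the bitter receptors Gr66a, Gr33a and Gr32a, together with Gr28b. Both subunits of the carbon dioxide receptor had weak pooled peaks, Gr21a of 52.1 in its promoter (replicate 1 alone) and Gr63a of 47 beyond 500 bp. Among Or genes, the geosmin receptor Or56a had 1 promoter peak of 51.0 and 3 distal ones, Or42a 2 distal ones up to 48.7, and the pheromone receptor Or47b 1 of 47.8. Or22a and Or42b, both tuned to fruit odours, had none. These signals lie close to the lowest in the pooled list, 43.7.

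The next receptors by pooled signal stood below the IDR level. Or45b and Ir11a had distal peaks of 147.0 and 145.1, of pooled ranks 6854 and 6954, the nearest among those named here to the end of the IDR list. Each was found in both replicates, Or45b at ranks 6261 and 8288 and Ir11a at ranks 8233 and 6182. In all, 106 receptors had no pooled peak and 59 had pooled but no IDR peaks. A peak in the pooled and both replicate lists was tied to 55 receptors (30.7%), against 45.9% of all coding genes, and 90 (50.3%) had no peak in any list, against 36.3%.

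Position along the chromosomes was uneven. On 3R 8 of 42 receptors (19%) had an IDR peak, against 24.7% of all coding genes there. Gr93a, Gr93b and Gr93d, from a single locus, are among these 8. On the other arms the shares were 3 of 35 on 3L, 1 of 31 on 2L, 1 of 46 on 2R and 1 of 25 on X, against 28%, 25.3%, 22.6% and 29.9% of all coding genes. Receptors next to another receptor gene numbered 80, of which 10% had an IDR and 28.8% a pooled peak, against 6.06% and 50.5% of the 99 others. Without the Gr93 genes 5 of 76 such neighbours had an IDR peak (6.58%), close to the 6.06% of the others. Median territories of the 80 and the 99 were 3270 and 5648 bp. Receptors inside another coding gene numbered 30 (16.8%, against 13.4% of all coding genes), and 1 of them, Or98a, had an IDR peak (3.33%), against 21.1% of all nested coding genes. The 30 include receptors nested only in another receptor: Or10a and Gr10a, which share a span, Gr64b and Gr64c, which also do, and Gr64e within Gr64d. The same rule was used for all coding genes.

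Related gene lists gave a scale for these shares, beside the 25.8% of all coding genes with an IDR peak and the 14.1% with a promoter one. Of 55 olfactory accessory genes (Orco, lush, Snmp and Obp genes, the last coding for odorant-binding proteins), 10 (18.2%) had an IDR peak and 2 (3.64%) a promoter one, Obp83g and Obp99b. Orco had 1 distal IDR peak of signal 278.9, 809 bp from its start. Of 13 ionotropic glutamate receptor genes, the relatives of the Ir family, 1 had an IDR peak, GluRIIB, and none a promoter one. Of 45 other sensory receptor genes 6 (13.3%) had one and 1 a promoter one, wtrw, a TRP channel gene; this list was taken by symbol and includes Rh50, which is no rhodopsin. Of 24 genes for transcription factors of sensory neurons 11 (45.8%) had an IDR peak and 4 a promoter one. Oli itself, the precipitated factor, counts among both, with 3 promoter and 4 distal IDR peaks. The median territory of the 24 was 19250 bp, against 4304 bp for receptors. Of all coding genes with a territory over 10000 bp, 47.9% had an IDR peak and 17.3% a promoter one. The median territory of the glutamate receptor genes was 12074 bp.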

How the data were processed

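Oli-GFP ChIP-seq peak lists of 2 replicates, their pool and the IDR selection were deposited on dm6. The signal of each peak is the authors' deposited value and was left as it is. The summit comes from the deposited offset, another value that was not rescaled. Per the accompanying file notes, the replicate lists share a control. Neither aligner nor peak caller is named in the sources used here. Depth is unknown.

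Sequence was read from RefSeq's Release 6 genome, and starts, exons and UTRs from Ensembl (release 115, BDGP6 annotation 54). Peaks on 6 chromosomes were tied to the nearest protein-coding start, and genes sharing that start were all kept. Overlap meant at least 1 bp. Motifs were searched on both strands within 50 bp of the summit. Counts were set beside those over all coding genes, with no test of chance. The tying step was tested on simulated data. Python 3.11.15, numpy 2.4.6, pandas 2.3.3 and matplotlib 3.10.9 were used.

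Named were all members with an IDR peak, up to 8 per family with a promoter peak in the pooled and both replicate lists, the 5 with the highest pooled signal per family, and 24 well-known receptors. Members, lists and rules were chosen with earlier results of these data known. Other genes were named after their values were seen. Alternatives covered the strength of the list, the replicate used, the promoter width, the gene assignment and the overlap.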

Additional observations from a re-analysis of the deposited data

How the results depend on the processing

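Of 59 alternative values, 40 kept close to the reported ones and 19 moved. A count or density was taken as close within 1.5 times, a share within its binomial interval, and GC content or signal within the SD between the replicates, a narrow limit. Keeping only the stronger 3248 IDR peaks gave 7 receptor genes with a peak, all 7 with a distal one, 1 Or and 2 Ir genes, and 7 peaks per Mb of receptor territory. A peak was then tied to 3.91% of receptors and 15.9% of all coding genes. Tying peaks to the nearest start of any gene type gave 3 Or and 3 Ir genes, with 5.59% of receptors and 23.6% of all coding genes having a peak. Putting the strongest 6496 peaks of a single replicate in place of the IDR list gave 14 to 18 receptor genes with a peak, 0 to 1 with a promoter peak (Or88a, in replicate 1) and 13 to 18 with a distal one. By family this gave 5 to 6 Or, 4 to 5 Gr and 5 to 7 Ir genes, and the density was 14.6 to 16.6 per Mb. With single replicates 7.82% to 10.1% of receptors had a peak, against 25.1% to 26.4% of all coding genes. A promoter peak was then tied to 13.9% to 14.6% of all coding genes. In place of the pooled list the single replicates gave 69 to 72 genes with a peak and 15 to 16 with a promoter peak. The stronger 15000 pooled peaks gave 40 genes with a peak and 3 with a promoter peak. No share over all coding genes is given for this setting, for peaks found in both replicates or for other promoter widths. Those counts describe receptors alone. Pooled peaks found in both replicates were tied to 49 receptor genes, against 73 with all pooled peaks, and as promoter peaks to 7. Pooled promoter genes numbered 4 within 200 bp and 28 within 1000 bp. The share of pooled receptor peaks in both replicates was 49% when overlap had to reach 50% of each peak and 41.4% with summits within 100 bp. GC content at IDR summits was 32% with 100 bp on either side. Without the Gr93 genes, a choice made after seeing the data, 1 Gr gene and 5 receptors next to another receptor had an IDR peak, and the density was 9.05 per Mb. The cause of the 19 moves was not tested. No paired analysis was possible because there is only 1 group. Depth is unknown, so no limit of detection could be set for receptors without a peak.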
